A study of Mus musculus with 22 samples.

Results

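Slpi, Ly6e, Klf10 and Acer2 are 4 of the 56691 genes counted in CD11b+ cells from mouse brain on postnatal days P7 and P14. They were chosen by their own measured levels, as genes that differed between P7 pups with hypoxic-ischemic encephalopathy (HIE) and P7 controls and had a small spread among those controls. Their P7 difference is therefore given as a description with no test, and the P14 and sex comparisons, which played no part in the choice, are tested. All 4 passed the filter on low counts on both days.

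Slpi, secretory leukocyte protease inhibitor, is a small secreted protein that blocks serine proteases of neutrophils such as elastase and cathepsin G, and macrophages make it after contact with bacterial products. Ly6e is a cell-surface protein held by a lipid anchor that type I interferon induces, and Klf10 is a zinc finger repressor of the Kruppel-like family known as an early target of transforming growth factor beta (TGF-beta). Acer2 is an alkaline ceramidase of the Golgi, which splits ceramide, a membrane lipid, into sphingosine and a fatty acid. Microglia, the resident macrophages of the brain, are the main cells that carry CD11b there.

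The data are 22 RNA sequencing libraries from 20 CF-1 wildtype mice, an outbred stock, in 5 groups of 4 animals. HIE animals had a dam given the bacterial product LPS on E18 and were exposed to a short fall in oxygen on P6, while controls had saline and room air. The labels also hold a P14 group named hypoxia, whose treatment the methods do not describe. CD11b+ cells were enriched on magnetic beads after enzymatic dissociation of the brain, and the labels call them monocytes. The P7 HIE pups came from the name prefixes N5 and N8 and were all labelled male. The P7 controls came from P6H63 and P6H55, with 1 male and 1 female in each. Their labels give days from P8 to P11 where the methods give P7. The P14 HIE animals came from P4H1 and P6H12, the P14 controls from P4H4 and P6H8 and the hypoxia animals from P6H7 and P6H9, each with 1 animal of each sex label. The labels leave the prefixes undefined, and a shared prefix is read as a litter in what follows. No litter spans several groups, so litter and treatment cannot be told apart, and each day was deposited as its own table, so day and batch cannot be told apart either. Nothing states that the animals of a litter are independent, and p-values measure the spread between these animals.

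Totals ran from 70191584 to 83469067 counts per library at P7 and from 29751540 to 46404123 at P14, so that 3 counts stood for 0.0359 to 0.0427 CPM at P7 and for 0.0646 to 0.101 CPM at P14. CPM is a count divided by the library's total and brought to a common scale, here with TMM, a factor that corrects for the makeup of a library, within each day. The labelled cell type was checked against microglia markers, of which 11 of 12 were in the files and none was at 0. Their summed level was 1426 and 2202 CPM in the P6H63 controls, against 14290 and 15920 CPM in the P6H55 controls, 17930 to 20580 CPM in the P7 HIE pups and 17170 to 29740 CPM at P14. The P6H63 pair thus stood apart, and the P7 levels of the chosen genes are given against each control litter. Other genes named in the text, and counts of genes called, are given against both control litters together unless a litter is named. In whole preparations of this kind, fewer cells of a type and less RNA per cell cannot be told apart.

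In the P7 comparison, edgeR called 15 of 22517 genes at an adjusted p under 0.05, which is 0.0666% of those tested. The 4 genes, picked on this contrast, were among them, and nothing is read from that. Against the P6H63 controls alone 13904 genes passed, and against the P6H55 controls alone 26. The P7 HIE and control ranges were apart for all 4 genes and for 17.0% of the genes tested. Among the 4 controls, the SD of log2 CPM was 0.05 for Klf10, 0.12 for Acer2 and 0.25 for Ly6e, lower than the 0.454 of the median gene, whereas Slpi, with 0.51, was above it. By that SD, 0.799% of genes were tighter than Klf10, 9.95% tighter than Acer2, 27.8% tighter than Ly6e and 54.8% tighter than Slpi. Per kilobase of exon, the mean level in the P7 controls was 41.9 CPM for Ly6e, 15.5 CPM for Klf10, 1.72 CPM for Acer2 and 1.03 CPM for Slpi.

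**Figure D1:**
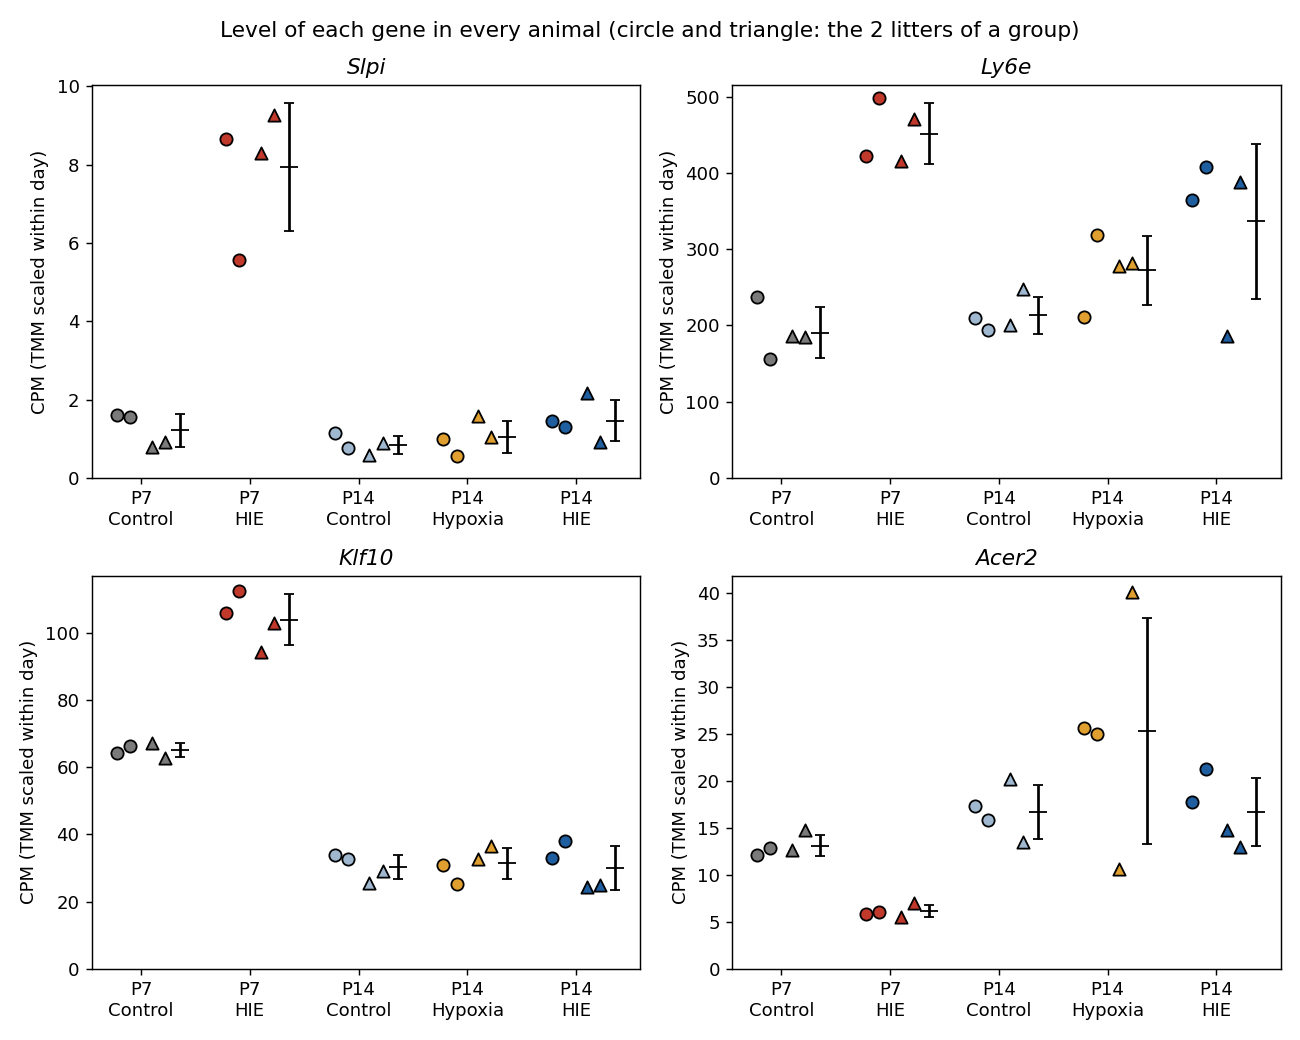
CPM of each gene, scaled by TMM within day, on a linear axis from 0 in each of the 20 animals, with 1 point per animal and the mean with its SD beside each group. Circles and triangles are the litters P6H55 and P6H63 in P7 controls, N5 and N8 in P7 HIE, P4H4 and P6H8 in P14 controls, P6H7 and P6H9 in hypoxia and P4H1 and P6H12 in P14 HIE. The P7 HIE points of Slpi, Ly6e and Klf10 lie above all 4 P7 controls and those of Acer2 below them, while at P14 the groups overlap for each gene.

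The stretches upstream of the 4 genes are shown because 3 of the genes were higher and 1 was lower in the same pups. Each is the 250 bases before the first base of the canonical transcript in GENCODE release M39, read from GRCm39 on the gene's strand, 5′ to 3′. Slpi lies at chr2:164195990-164231015 on the minus strand, Ly6e at chr15:74826860-74847454 on the plus strand, Klf10 at chr15:38291703-38300959 on the minus strand and Acer2 at chr4:86792537-86853061 on the plus strand, all protein coding. Capitals mark matches, on either strand, to 9 short motifs.
Slpi, chr2:164198428-164198677: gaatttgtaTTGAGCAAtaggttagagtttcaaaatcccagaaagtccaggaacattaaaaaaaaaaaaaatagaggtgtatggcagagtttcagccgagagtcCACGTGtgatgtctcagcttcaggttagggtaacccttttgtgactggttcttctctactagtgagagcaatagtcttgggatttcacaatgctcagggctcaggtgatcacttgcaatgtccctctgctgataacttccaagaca
Ly6e, chr15:74826610-74826859: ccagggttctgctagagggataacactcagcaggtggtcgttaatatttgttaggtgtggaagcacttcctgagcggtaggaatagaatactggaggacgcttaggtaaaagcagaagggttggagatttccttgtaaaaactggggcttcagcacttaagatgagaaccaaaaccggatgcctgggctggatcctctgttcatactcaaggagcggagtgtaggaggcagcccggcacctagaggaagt
Klf10, chr15:38300960-38301209: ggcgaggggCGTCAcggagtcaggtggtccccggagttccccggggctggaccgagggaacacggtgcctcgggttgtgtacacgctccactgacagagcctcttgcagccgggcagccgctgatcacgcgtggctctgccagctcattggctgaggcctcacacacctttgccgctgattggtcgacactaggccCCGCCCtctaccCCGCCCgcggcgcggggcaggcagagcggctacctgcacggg
Acer2, chr4:86792287-86792536: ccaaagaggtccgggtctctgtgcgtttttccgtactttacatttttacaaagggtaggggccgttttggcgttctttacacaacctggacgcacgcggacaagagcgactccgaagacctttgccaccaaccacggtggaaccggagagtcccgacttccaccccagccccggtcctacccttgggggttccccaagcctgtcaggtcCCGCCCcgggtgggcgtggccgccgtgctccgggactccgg
The motifs searched were GGANNTTCC (an NF-kB core, in 3.87% of 21757 such stretches of protein-coding genes), GAAANNGAA (the interferon-stimulated response element, 7.56%), TGA and TCA with any base between (AP-1, 6.18%), TGACG (a part of the cAMP response element, 18%), CAGAC (SMAD, 41.4%), ACGTG (the hypoxia response element, 17%), GGGCGG (the GC box of Kruppel-like and SP factors, 36.3%), TATAAA (the box for the general start factor, 11.9%) and TTGCNNAA (C/EBP, 9.34%). The Slpi stretch held the C/EBP letters at 241 to 234 bases before the start and overlapping matches to ACGTG on opposite strands between 146 and 141 bases before it. Klf10 held TGACG at 241 to 237 bases and the GC box at 54 to 49 and at 42 to 37 bases before its start, and Acer2 held the GC box at 41 to 36 bases. The Ly6e stretch held none of the 9 motifs. GC content was 42% for Slpi, 50% for Ly6e, 69.6% for Klf10 and 62.4% for Acer2, with a median of 53.2% over all such stretches. A match is a run of letters, and binding was not measured.

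Slpi, the secreted protease inhibitor, had the largest P7 difference of the 4. The P6H63 controls had 0.778 and 0.918 CPM and the P6H55 controls 1.60 and 1.57 CPM. The HIE pups had 8.67 and 5.55 CPM in litter N5 and 8.29 and 9.26 CPM in litter N8. All 4 HIE pups were high, and the lowest was 3.48-fold above the highest control. The group means were 7.94 ± 1.64 CPM in HIE and 1.21 ± 0.428 CPM in controls (SD, n = 4), a ratio of 6.54 and a fitted log2 fold change of 2.71. Against the P6H63 controls the ratio of means was 9.37 and against the P6H55 controls 5.02. These values rest on 66 to 127 counts in controls and 407 to 641 in HIE pups. The 95% Poisson interval, which covers counting error only, ran from 0.601 to 0.989 CPM in the lowest control and from 5.03 to 6.12 CPM in the lowest HIE pup.

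At P14, Slpi was at 1.14 and 0.774 CPM in the P4H4 controls and at 0.881 and 0.579 CPM in the P6H8 controls. HIE animals had 1.46 and 1.3 CPM in P4H1 and 0.920 and 2.16 CPM in P6H12, the last in the female. Hypoxia animals had 0.987 and 0.567 CPM in P6H7 and 1.58 and 1.05 CPM in P6H9. In HIE, 3 of 4 animals were above all controls and the ranges overlapped. The log2 fold change between HIE and control was 0.77 (SE 0.337, 95% interval 0.02 to 1.53), which did not pass (edgeR adjusted p = 0.49; unadjusted p = 0.0453; two-sided exact permutation p = 0.0571, where 70 relabellings of 4 against 4 allow no less than 0.0286). Without the P6H12 female it was 0.53 (adjusted p = 0.595). Hypoxia animals differed from controls by 0.31 (SE 0.355, 95% interval -0.49 to 1.11; adjusted p = 0.811 by edgeR) and HIE from hypoxia by 0.45 (SE 0.365, 95% interval -0.36 to 1.26; adjusted p = 1 by edgeR). Without the P6H9 male the hypoxia value was 0.04, and without the P6H12 female that of HIE against hypoxia was 0.20. The HIE and hypoxia comparisons share their control animals. On a scale fitted over all 20 animals, P7 HIE stood first, with 5.16 times the mean of the next group, P14 HIE, and no overlap with it. The other groups followed in the order P7 control, P14 hypoxia and P14 control, and each overlapped its neighbour.

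Neutrophils hold Slpi, and their markers were followed beside it. The summed level of 10 neutrophil markers, none of which was at 0, was 18.2 and 21.5 CPM in the P6H63 controls, 167 and 189 CPM in the P6H55 controls and 81.5 to 206 CPM in the P7 HIE pups. HIE pups with 81.5, 88.7, 99.4 and 206 CPM of neutrophil markers had 5.55, 8.29, 8.67 and 9.26 CPM of Slpi, so that both had the same order in these 4 pups. The P6H55 controls, with 167 and 189 CPM of the markers, had 1.60 and 1.57 CPM of Slpi in that order. At P14 the marker sum was 93.1 to 129 CPM in controls, 84.9 to 294 CPM in hypoxia and 81.5 to 450 CPM in HIE, and the P6H12 female had both the highest sum and the highest Slpi. Over the 12 P14 animals, log2 Slpi and the log2 sum had r = 0.798 and rho = 0.769, and r = 0.585 without the 2 animals farthest from the median sum. These points share a library each. The part of neutrophils in the P7 and P14 values was not tested.

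**Figure D2:**
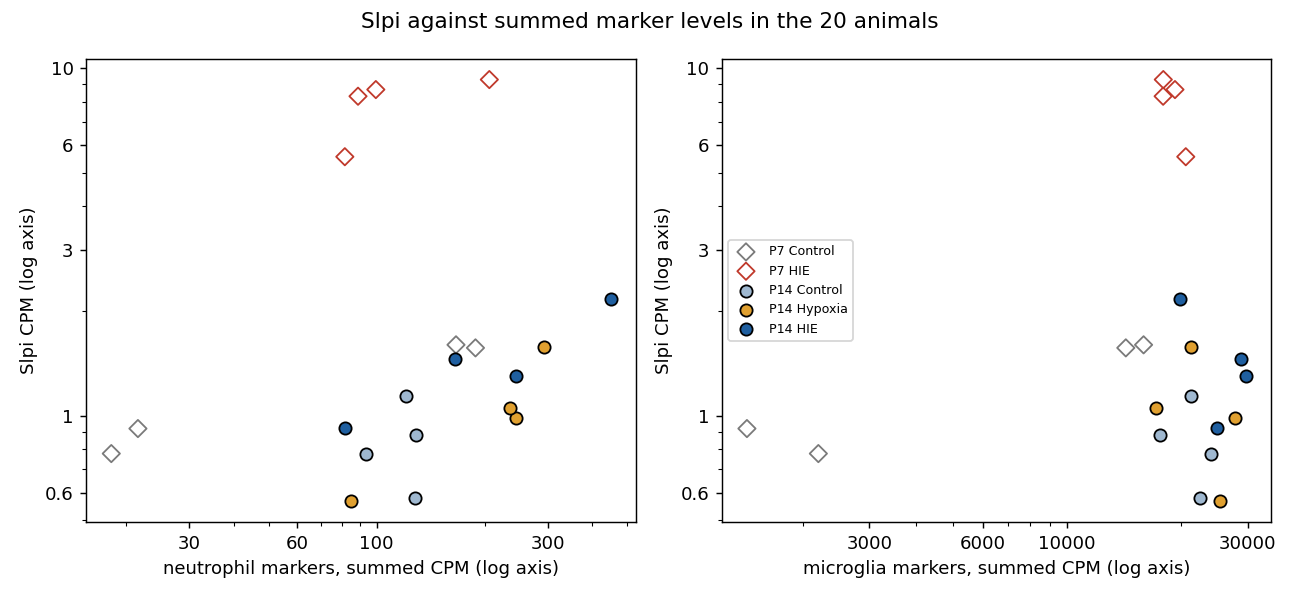
Slpi CPM against the summed CPM of 10 neutrophil markers (left) and of 11 microglia markers (right) in the 20 animals, both axes logarithmic, with 1 point per animal, open diamonds for P7 and filled circles for P14. The P7 HIE pups lie at 5.55 to 9.26 CPM of Slpi over neutrophil sums of 81.5 to 206 CPM, a range of sums in which the P6H55 controls lie at 1.57 and 1.60 CPM and the highest P14 animal at 1.46 CPM.

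Of the 18 other WAP proteins in the files, the family with the same four-disulfide fold, 6 were tested at P7 and edgeR called 0. At an unadjusted p under 0.05 it had 3, beside 27.3% of all genes, and DESeq2 called 3 lower, beside 13.4% of all genes. Their median log2 fold change was -0.91, against -0.08 over all genes, and 5 of 6 were negative. Wfdc1 had 14.1 ± 5.56 CPM in controls and 7.49 ± 0.842 CPM in HIE pups, and Wfdc2, an epithelial WAP protein, 5.11 ± 3.23 and 1.74 ± 0.520 CPM. Next, 8 genes were tested from a list of leukocyte proteases that also held the granule peroxidase Mpo and the brain kallikrein Klk8. Of these edgeR called 0 and had 2 at an unadjusted p under 0.05, beside 27.3% of all genes. DESeq2 called Klk8 higher and Prtn3 lower, beside 13.4% of all genes. Klk8 was at 2.27 ± 0.498 CPM in controls and 4.91 ± 0.992 CPM in HIE pups, and Prtn3, neutrophil proteinase 3, at 1.96 ± 0.473 and 1.14 ± 0.166 CPM. Of 24 serpins, cystatins and other protease inhibitors, edgeR called 0, with 12 at an unadjusted p under 0.05, and DESeq2 called 3 higher and 7 lower, beside 27.3% and 13.4% of all genes for the 2 counts. The most abundant of these, Cst3, was at 1278 ± 737 CPM in controls and 2759 ± 259 CPM in HIE pups (edgeR adjusted p = 0.156). The median of the WAP family was -1.44 against P6H63 and -0.61 against P6H55, where Slpi had 3.26 and 2.33.

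The annotated span of Slpi overlaps Matn4, a cartilage matrix gene on the same strand, and the authors' counting divides reads between such genes. Matn4 was at 3.46 to 11.2 CPM in P7 controls and 2.7 to 5.66 CPM in P7 HIE pups, with a log2 fold change of -0.71 (edgeR adjusted p = 0.246).

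Ly6e, the interferon-induced surface protein, was higher in every P7 HIE pup than in every control. It was at 186 and 184 CPM in the P6H63 controls and at 237 and 155 CPM in the P6H55 controls. The HIE pups had 422 and 498 CPM in N5 and 416 and 471 CPM in N8. All HIE pups were high, and the lowest was 1.76-fold above the highest control. Means were 452 ± 39.5 CPM in HIE and 191 ± 34.0 CPM in controls (SD, n = 4), a ratio of 2.37 and a fitted log2 fold change of 1.24. The ratio was 2.44 against P6H63 and 2.30 against P6H55. These values rest on at least 12595 counts per pup.

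At P14, Ly6e was at 210 and 194 CPM in the P4H4 controls and at 248 and 201 CPM in the P6H8 controls. HIE animals had 364 and 408 CPM in P4H1, and in P6H12 the male had 388 CPM and the female 187 CPM. Hypoxia animals had 211 and 318 CPM in P6H7 and 278 and 281 CPM in P6H9. In HIE, 3 animals were above all controls and the P6H12 female was below all of them. The log2 fold change between HIE and control was 0.66 (SE 0.215, 95% interval 0.18 to 1.14), which did not pass (edgeR adjusted p = 0.326; unadjusted p = 0.0124; exact permutation p = 0.143). Without the P6H12 female it was 0.86 (adjusted p = 0.0985). Hypoxia animals differed from controls by 0.35 (SE 0.133, 95% interval 0.05 to 0.65; edgeR adjusted p = 0.494; exact permutation p = 0.0571), with 3 of 4 above all controls. HIE differed from hypoxia by 0.29 (SE 0.227, 95% interval -0.22 to 0.79; edgeR adjusted p = 1). Among animals whose names begin with P4H, the mean was 202 CPM in controls and 386 CPM in HIE, and among those that begin with P6H it was 225 CPM in controls, 287 CPM in HIE and 272 CPM in hypoxia. On the scale over 20 animals the order was P7 HIE, P14 HIE, P14 hypoxia, P14 control and P7 control, and each group overlapped its neighbour.

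Interferon-induced genes had mostly positive fold changes in the P7 HIE pups and mostly negative ones in the P14 HIE animals, and none passed edgeR on either day. Of 30 such genes edgeR called 0 at P7 and had 13 at an unadjusted p under 0.05, beside 27.3% of all genes, and DESeq2 called 10 higher and 0 lower, beside 13.4% of all genes. Their median log2 fold change was 0.48, with 27 of 30 positive, and it was 0.51 against P6H63 and 0.46 against P6H55. Parp14 was at 52.6 ± 32.3 CPM in controls and 89.6 ± 2.62 CPM in HIE pups (edgeR adjusted p = 0.242), and Trim30a at 28.6 ± 21.6 and 62.5 ± 2.59 CPM (edgeR adjusted p = 0.2). At P14 the same list had a median of -0.54 between HIE and control, with 27 of 30 negative, against 0.01 over all genes. There edgeR called 0, with 13 at an unadjusted p under 0.05 beside 9.87% of all genes, and DESeq2 called 6 lower, beside 2.34% of all genes. Among these, chosen after their values were seen, Rsad2, an antiviral enzyme, was at 5.85 ± 2.73 CPM in P14 controls and 2.44 ± 0.657 CPM in P14 HIE, and Ifit3b at 2.72 ± 0.200 and 1.33 ± 0.309 CPM. Ly6e had 0.66 there. Between hypoxia and control the list had a median of 0.05, and between HIE and hypoxia -0.54.

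Of the other Ly6 family genes, 35 were in the files and 21 were tested at P7. By edgeR 0 passed, with 8 at an unadjusted p under 0.05, and by DESeq2 Ly6i and Ly6m were higher and Ly6c1 lower, beside 27.3% and 13.4% of all genes for the 2 counts. Ly6c1, which marks endothelial cells and some monocytes, was at 43.0 ± 17.1 CPM in controls and 22.8 ± 2.88 CPM in HIE pups. Plaur, the urokinase receptor, was at 16.2 ± 9.87 and 26.7 ± 3.64 CPM (edgeR adjusted p = 0.279). The family's median was -0.88 against P6H63 and 0.05 against P6H55, where Ly6e had 1.32 and 1.21.

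Klf10, the TGF-beta-induced repressor, had the tightest controls of the 4. The P6H63 controls had 67.3 and 62.7 CPM and the P6H55 controls 64.3 and 66.4 CPM. The HIE pups had 106 and 113 CPM in N5 and 94.5 and 103 CPM in N8. All HIE pups were high, and the lowest was 1.40-fold above the highest control. Means were 104 ± 7.55 CPM in HIE and 65.2 ± 2.10 CPM in controls (SD, n = 4), a ratio of 1.60 and a fitted log2 fold change of 0.67. The ratio was 1.60 against P6H63 and 1.59 against P6H55, a likeness that the choice by small control spread used. The size depends on the scaling, since with library size alone the log2 fold change was 0.47 while the median over all genes moved from -0.08 to -0.29. The small control spread and the likeness of the 2 ratios depend on TMM as well. On the scale of library size alone, the P6H63 controls had 81.4 and 72.7 CPM and the P6H55 controls 61.95 and 64.5 CPM. The control mean there was 70.1 ± 8.81 CPM (SD, n = 4). The HIE and control ranges of each of the 4 genes stayed apart on that scale too.

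At P14, Klf10 was lower than at P7 in every animal and did not separate the groups. Controls had 33.8 and 32.6 CPM in P4H4 and 29.2 and 25.6 CPM in P6H8. HIE animals had 33.0 and 37.9 CPM in P4H1 and 24.8 and 24.3 CPM in P6H12, and hypoxia animals had 31.0 and 25.2 CPM in P6H7 and 32.6 and 36.6 CPM in P6H9. The 3 groups shared 1 range. The log2 fold change was -0.02 between HIE and control (SE 0.16, 95% interval -0.37 to 0.34; edgeR adjusted p = 0.988), 0.05 between hypoxia and control (SE 0.133, 95% interval -0.25 to 0.35; edgeR adjusted p = 0.933) and -0.08 between HIE and hypoxia (SE 0.166, 95% interval -0.45 to 0.28; edgeR adjusted p = 1). Within the P6H animals, a fit chosen after seeing the data, HIE and hypoxia differed by -0.37 (SE 0.151; edgeR adjusted p = 0.926; unadjusted p = 0.0396). That fit set 2 HIE animals of the 1 litter P6H12 against 4 hypoxia animals. In it, 1001 of 22064 genes had an unadjusted p under 0.05. Over all 20 animals the order was P7 HIE, P7 control, P14 hypoxia, P14 HIE and P14 control, with no overlap between the first and the second or between the second and the third, and overlap between the others. The mean of the P7 controls was 2.05 times that of the P14 controls on this scale, and that of P7 HIE 3.28 times that of P14 HIE.

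Of 18 other Kruppel-like and SP factors tested at P7, edgeR called 0 and had 6 at an unadjusted p under 0.05, and DESeq2 called Sp1 higher and Klf15, Klf5 and Klf9 lower, beside 27.3% and 13.4% of all genes for the 2 counts. Klf6, the most abundant, was at 420 ± 249 CPM in controls and 695 ± 52.6 CPM in HIE pups (edgeR adjusted p = 0.262), and Klf2 at 379 ± 192 and 541 ± 50.2 CPM (edgeR adjusted p = 0.338). The family's median was 0.11 against P6H63 and 0.04 against P6H55. Of 16 TGF-beta ligands, activators and receptors, edgeR called 0, with 10 at an unadjusted p under 0.05, and DESeq2 called 1 higher, the integrin Itgav, and 7 lower, beside 27.3% and 13.4% of all genes for the 2 counts. Tgfbr1, a TGF-beta receptor, was at 442 ± 363 CPM in controls and 854 ± 89.0 CPM in HIE pups (edgeR adjusted p = 0.312), and Tgfb1, the ligand, at 208 ± 145 and 385 ± 19.4 CPM (edgeR adjusted p = 0.254). The median of these 16 was -1.07 against P6H63 and -0.16 against P6H55. Of 20 SMAD factors and TGF-beta targets, edgeR called 0, with 11 at an unadjusted p under 0.05, and DESeq2 called 2 higher and 5 lower, beside 27.3% and 13.4% of all genes for the 2 counts. The 2 higher were Smurf2 and Tgif1, and the 5 lower were Bambi, Ccn2, Id1, Id3 and Smad6. Ccn2 was at 17.2 ± 8.44 CPM in controls and 5.36 ± 1.04 CPM in HIE pups (DESeq2 adjusted p = 0.00145). Skil, a TGF-beta target that restrains SMADs and that neither tool called, was at 225 ± 97.8 and 400 ± 49.5 CPM (edgeR adjusted p = 0.155).

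Acer2, the ceramidase, was the 1 gene of the 4 that was lower in P7 HIE. The P6H63 controls had 12.7 and 14.7 CPM and the P6H55 controls 12.1 and 12.8 CPM. The HIE pups had 5.83 and 6.02 CPM in N5 and 5.52 and 7.00 CPM in N8. All HIE pups were low, and the lowest control was 1.73-fold above the highest of them. Means were 6.09 ± 0.640 CPM in HIE and 13.1 ± 1.14 CPM in controls (SD, n = 4), so that controls had 2.15 times the HIE level, a fitted log2 fold change of -1.10. Controls had 2.25 times the HIE mean in P6H63 and 2.05 times in P6H55. These values rest on 387 to 478 counts in HIE and 843 to 1269 in controls.

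At P14, Acer2 was at 17.3 and 15.8 CPM in the P4H4 controls and at 13.4 and 20.2 CPM in the P6H8 controls. HIE animals had 17.7 and 21.2 CPM in P4H1 and 12.99 and 14.8 CPM in P6H12. The HIE and control ranges overlapped almost fully, and the log2 fold change was -0.002 (SE 0.177, 95% interval -0.40 to 0.39; edgeR adjusted p = 0.998). Hypoxia animals spread more widely, with 25.6 and 24.99 CPM in P6H7 and, in P6H9, 10.6 CPM in the male and 40.1 CPM in the female. Hypoxia and control differed by 0.60 (SE 0.326, 95% interval -0.13 to 1.33; edgeR adjusted p = 0.58; exact permutation p = 0.343), and by 0.29 without the P6H9 female. HIE and hypoxia differed by -0.62 (SE 0.326, 95% interval -1.35 to 0.10; edgeR adjusted p = 0.999), and by -0.33 without that animal. On the scale over 20 animals the order was P14 hypoxia, P14 HIE, P14 control, P7 control and P7 HIE, and the first 4 overlapped their neighbours while P7 HIE stood apart below them.

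The other ceramidases did not share the lower level of Acer2 at P7. Asah1, the acid ceramidase of lysosomes, was at 175 ± 120 CPM in controls and 300 ± 14.7 CPM in HIE pups (edgeR adjusted p = 0.294), Acer3, a second alkaline ceramidase, at 40.8 ± 19.7 and 70.5 ± 3.70 CPM (edgeR adjusted p = 0.167) and Asah2, the neutral ceramidase, at 17.5 ± 2.74 and 22.0 ± 1.11 CPM (edgeR adjusted p = 0.16). By edgeR 0 of these 3 passed, with 2 at an unadjusted p under 0.05, and by DESeq2 0. Their median was 1.57 against P6H63 and 0.30 against P6H55. Of 17 genes of ceramide synthesis, edgeR called 0, with 10 at an unadjusted p under 0.05, and DESeq2 called 2 higher and 4 lower. Cers6, a ceramide synthase, was at 54.1 ± 12.8 CPM in controls and 83.9 ± 5.44 CPM in HIE pups. Of 17 genes that convert ceramide to sphingomyelin or glycolipids and back, edgeR called 0, with 2 at an unadjusted p under 0.05, and DESeq2 called Sgms1 and Sgms2 lower. Sgms1 and Sgms2 join ceramide into sphingomyelin. Sgms2 was at 39.2 ± 14.3 CPM in controls and 16.9 ± 1.48 CPM in HIE pups (DESeq2 adjusted p = 0.00087), and Sgms1 at 58.8 ± 5.62 and 47.6 ± 1.76 CPM (DESeq2 adjusted p = 0.0381). Of 15 genes for sphingosine 1-phosphate, which is made from the product of Acer2, edgeR called 0, with 5 at an unadjusted p under 0.05, and DESeq2 called S1pr3 and Sphk1 lower. Sphk1, a sphingosine kinase, was at 7.34 ± 4.25 CPM in controls and 2.02 ± 0.563 CPM in HIE pups. Of 20 p53 targets, edgeR called 0, with 10 at an unadjusted p under 0.05, and DESeq2 3 in each direction. For all 5 of these ceramide, sphingosine and p53 lists the shares over all genes were 27.3% at an unadjusted p under 0.05 and 13.4% by DESeq2.

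**Figure D3:**
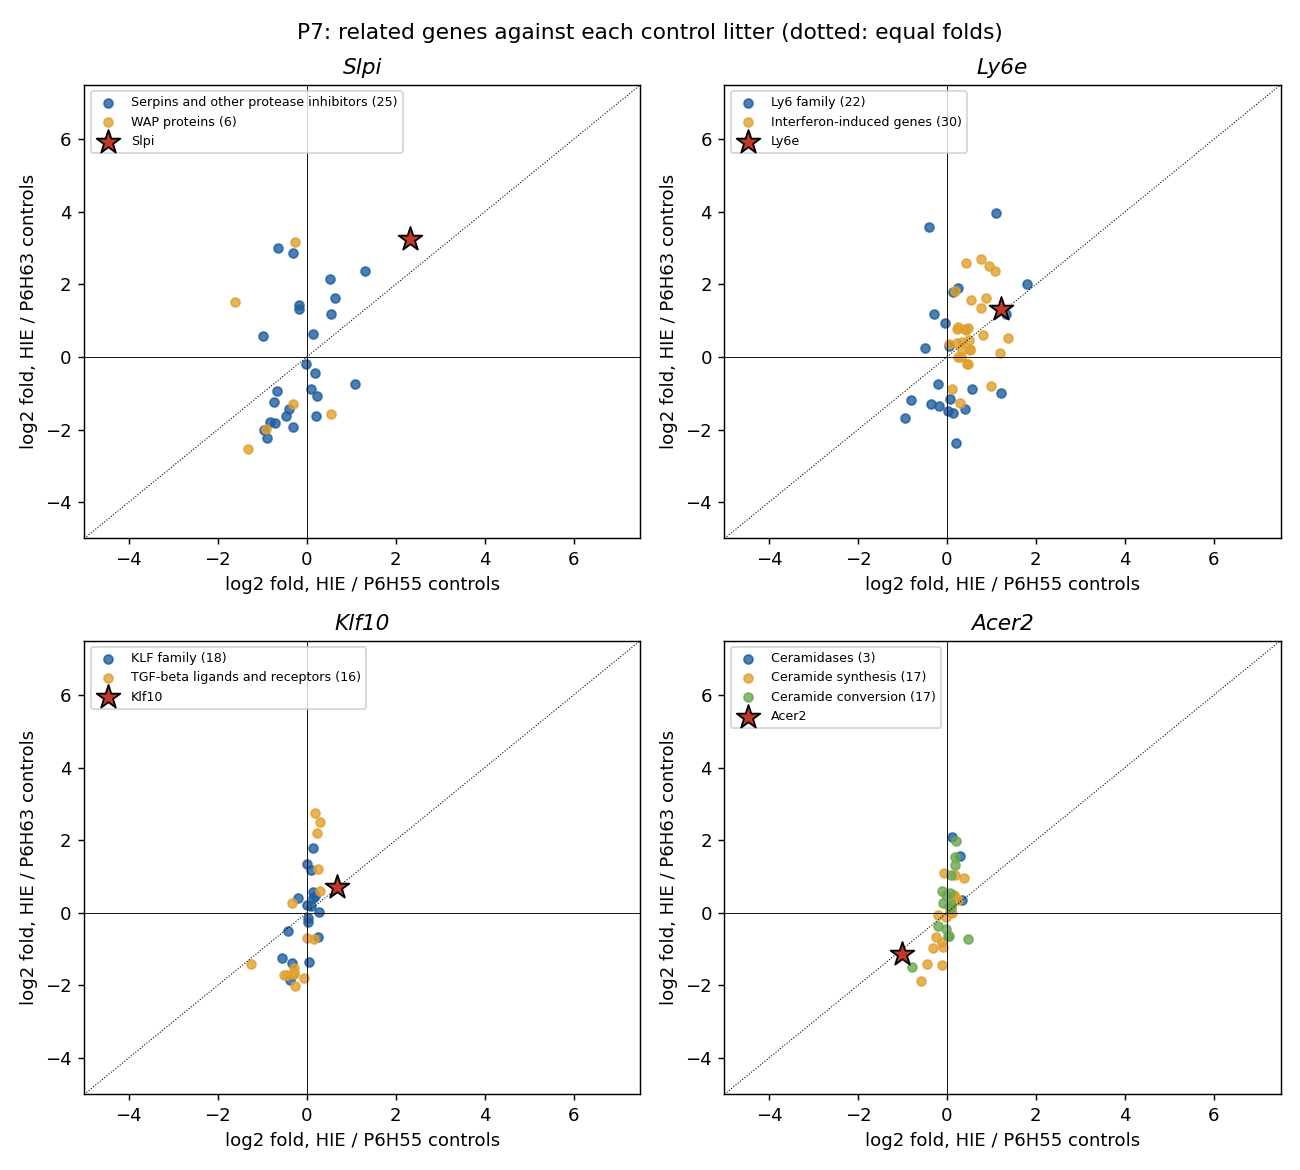
P7 log2 fold changes of HIE against the P6H55 controls (x axis) and against the P6H63 controls (y axis), with 1 point per gene of each list named in the key, the number of genes plotted in brackets, a star for the chosen gene and a dotted line where the folds are equal. Ly6e (1.21 and 1.32), Klf10 (0.68 and 0.71) and Acer2 (-1.02 and -1.14) lie near the dotted line, which the choice of genes with a small spread among controls favours, and Slpi (2.33 and 3.26) lies above it.

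Genes linked to the exposures themselves gave the following P7 values beside these. Of 29 LPS and NF-kB response genes tested, edgeR called 0, with 9 at an unadjusted p under 0.05, and DESeq2 called Nfkbie, Ptgs2 and Socs3 higher, beside 27.3% and 13.4% of all genes for the 2 counts. Their median was 2.48 against P6H63 and 0.35 against P6H55. Zfp36, which breaks down cytokine messages, was at 1672 ± 1323 CPM in controls and 3163 ± 176 CPM in HIE pups (edgeR adjusted p = 0.317). Of 20 immediate early genes, which dissociation of tissue also induces, edgeR called 0, with 4 at an unadjusted p under 0.05, and DESeq2 called Atf3 higher, with medians of 1.65 against P6H63 and 0.12 against P6H55. Of 20 hypoxia targets, edgeR called 0, with 8 at an unadjusted p under 0.05, and DESeq2 2 higher and 3 lower, and the median was 0.09. The same shares over all genes stand beside these 2 lists. Summed markers of other cells at P7 had HIE and control ranges that were apart for endothelium and choroid plexus. The ranges overlapped for monocytes and border macrophages. The sums were 1007 to 2404 CPM in controls and 715 to 945 CPM in HIE pups for endothelium and 4048 to 10350 and 1400 to 2527 CPM for choroid plexus. They were 893 to 2615 and 776 to 942 CPM for monocytes and 746 to 5570 and 4024 to 6672 CPM for border macrophages. The endothelial sum differed 0.47-fold, the monocyte sum 0.415-fold and the border macrophage sum 5.18-fold between P6H55 and P6H63. Between the same litters Klf10 differed 1.01-fold, Ly6e 1.06-fold, Acer2 0.91-fold and Slpi 1.87-fold on the TMM scale, values that the choice of the genes used. By library size alone, the P6H63 and P6H55 controls had 81.4 and 72.7 against 61.95 and 64.5 CPM of Klf10. They had 15.3 and 17.1 against 11.7 and 12.4 CPM of Acer2. Ly6e was at 225 and 214 against 228 and 151 CPM, and Slpi at 0.940 and 1.06 against 1.54 and 1.52 CPM. The part of other cells in the P7 values was not tested.

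None of the 4 genes passed edgeR in any P14 comparison, where the share of genes called was 0.00478% between HIE and control, 0.00955% between hypoxia and control and 0.00955% between HIE and hypoxia. At an unadjusted p under 0.05 edgeR had Slpi and Ly6e in the first comparison (9.87% of all genes), Ly6e in the second (9.53%) and none in the third (4.52%). DESeq2 called 0 of the 4 in each, and 2.34% of all genes in the first, 0.783% in the second and 0.0716% in the third. The group ranges were apart for 0 of the 4, and for 5.44%, 5.07% and 2.66% of all genes in the 3 comparisons. In the lists followed here, edgeR called 0 genes in any P14 comparison. Whether the P14 differences are smaller than those of P7 was not tested, since the P7 values chose the genes.

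**Figure D4:**
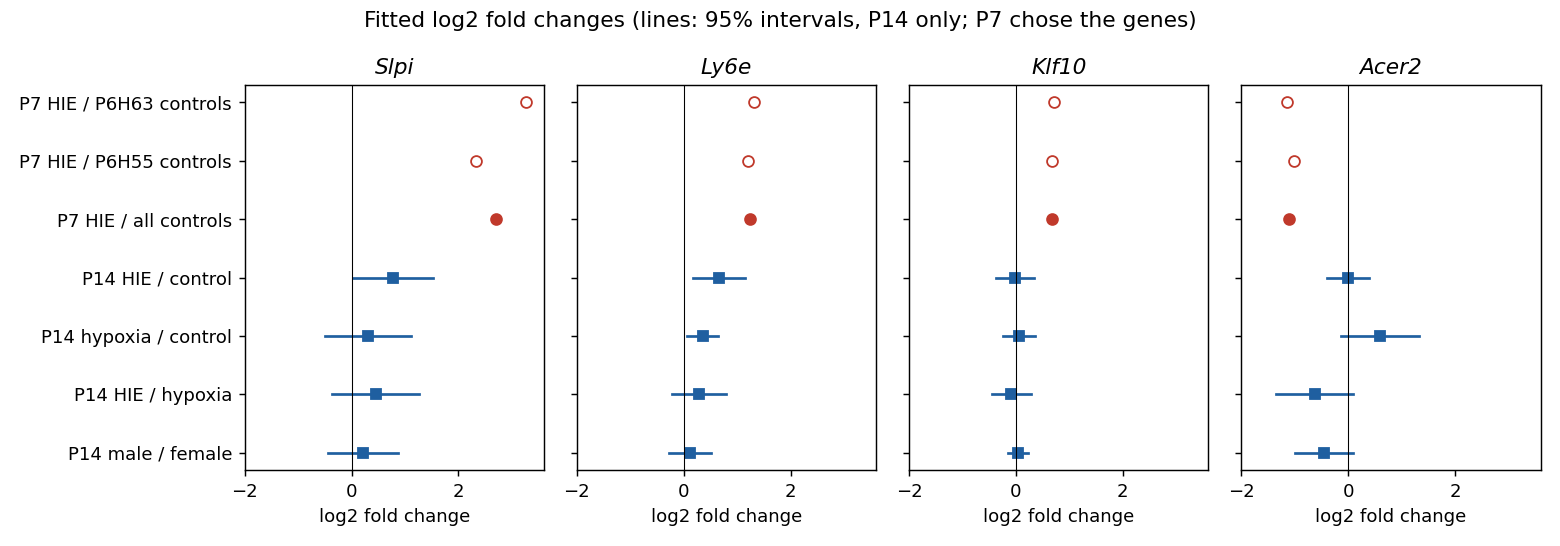
Fitted log2 fold changes of the 4 genes, with open circles for P7 HIE against each control litter, filled circles for P7 HIE against all controls and squares with 95% intervals for the P14 comparisons, on a shared axis from -2 to 3.6. Of the 16 P14 intervals, those of Slpi (0.02 to 1.53) and Ly6e (0.18 to 1.14) between HIE and control and of Ly6e (0.05 to 0.65) between hypoxia and control lie above 0, and none of these 3 passed after adjustment.

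Because all P7 HIE pups were labelled male, sex was compared at P14 with the litter as a block, 6 males against 6 females. Males differed from females by a log2 fold change of 0.22 for Slpi (SE 0.288, 95% interval -0.43 to 0.87), 0.11 for Ly6e (SE 0.176, 95% interval -0.28 to 0.51), 0.03 for Klf10 (SE 0.0822, 95% interval -0.15 to 0.22) and -0.45 for Acer2 (SE 0.239, 95% interval -0.99 to 0.09), each with an adjusted p of 1 by edgeR. By edgeR 0 of the 4 passed, with 0 at an unadjusted p under 0.05, beside 0.0415% and 3.0% of all genes, and by DESeq2 0, beside 0.083%. The male was higher in 5 of 6 litters for Slpi, 3 for Ly6e, 4 for Klf10 and 2 for Acer2. For Acer2 the P6H9 litter weighed most, and without either of its animals the value was -0.17. For Slpi it was 0.53 without either P6H12 animal (adjusted p = 0.998 by edgeR for each). Against the 2 male P7 controls alone, the P7 log2 fold changes were 2.75, 1.09, 0.66 and -1.02.

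Over the 12 P14 animals the 4 genes did not follow each other, with r from -0.312 for Slpi and Acer2 to 0.3 for Klf10 and Acer2. The genes most like each were sought by Pearson's r of log2 CPM among 12359 genes of at least 5 CPM. For Slpi these were Lgals3 (galectin-3, r = 0.908), Chi3l1 (0.868), the complement gene C3 (0.862), the neutrophil granule gene Ltf (0.807) and Anxa1 (0.803). For Ly6e they were Gpat4 (0.863), Commd10 (0.855), Tkfc (0.844), Smad6 (0.84) and Fam217b (0.831). For Klf10 they were Klf11 (0.936), its closest relative in the family, Nsun3 (0.887), Arrdc3 (0.882), Txnrd1 (0.872) and Opa1 (0.871). For Acer2 they were Sgms1 (0.947), the sphingomyelin synthase named above, Sema7a (0.9), Slfn5 (0.893), the RNA sensor Tlr7 (0.883) and Man2a1 (0.877). Without the 2 animals farthest from the median of the other gene, r was 0.852 for Slpi with Lgals3, 0.784 for Ly6e with Gpat4, 0.925 for Klf10 with Klf11 and 0.851 for Acer2 with Sgms1. The points share libraries and litters, and each gene was the highest of many, so that r is a description.

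The same partners at P7 gave other values. Klf11 was at 36.1 ± 4.69 CPM in P7 controls and 39.4 ± 2.66 CPM in P7 HIE, 0.13 on the log2 scale (SE 0.113; edgeR adjusted p = 0.448) where Klf10 had 0.67. Lgals3 was at 15.0 ± 1.43 and 14.1 ± 1.12 CPM, -0.08 on the log2 scale (SE 0.11; edgeR adjusted p = 0.626) where Slpi had 2.71. C3 was at 7.24 CPM in controls and 14.5 CPM in HIE pups, 1.00 on the log2 scale (SE 0.383; edgeR adjusted p = 0.16). Gpat4 was at 74.4 ± 3.41 and 84.3 ± 4.06 CPM, 0.18 on the log2 scale (SE 0.0772; edgeR adjusted p = 0.181) where Ly6e had 1.24. Sgms1 was lower in HIE by the values given above, -0.31 on the log2 scale (SE 0.0909; edgeR adjusted p = 0.15) where Acer2 had -1.10. Over the 8 P7 animals r was 0.901 for Acer2 and Sgms1, 0.523 for Klf10 and Klf11, 0.823 for Ly6e and Gpat4 and -0.334 for Slpi and Lgals3. Each r pools HIE and control pups, whose gap in the chosen genes was the ground for the choice. Such an r holds that gap, and nothing is read from it.

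**Figure D5:**
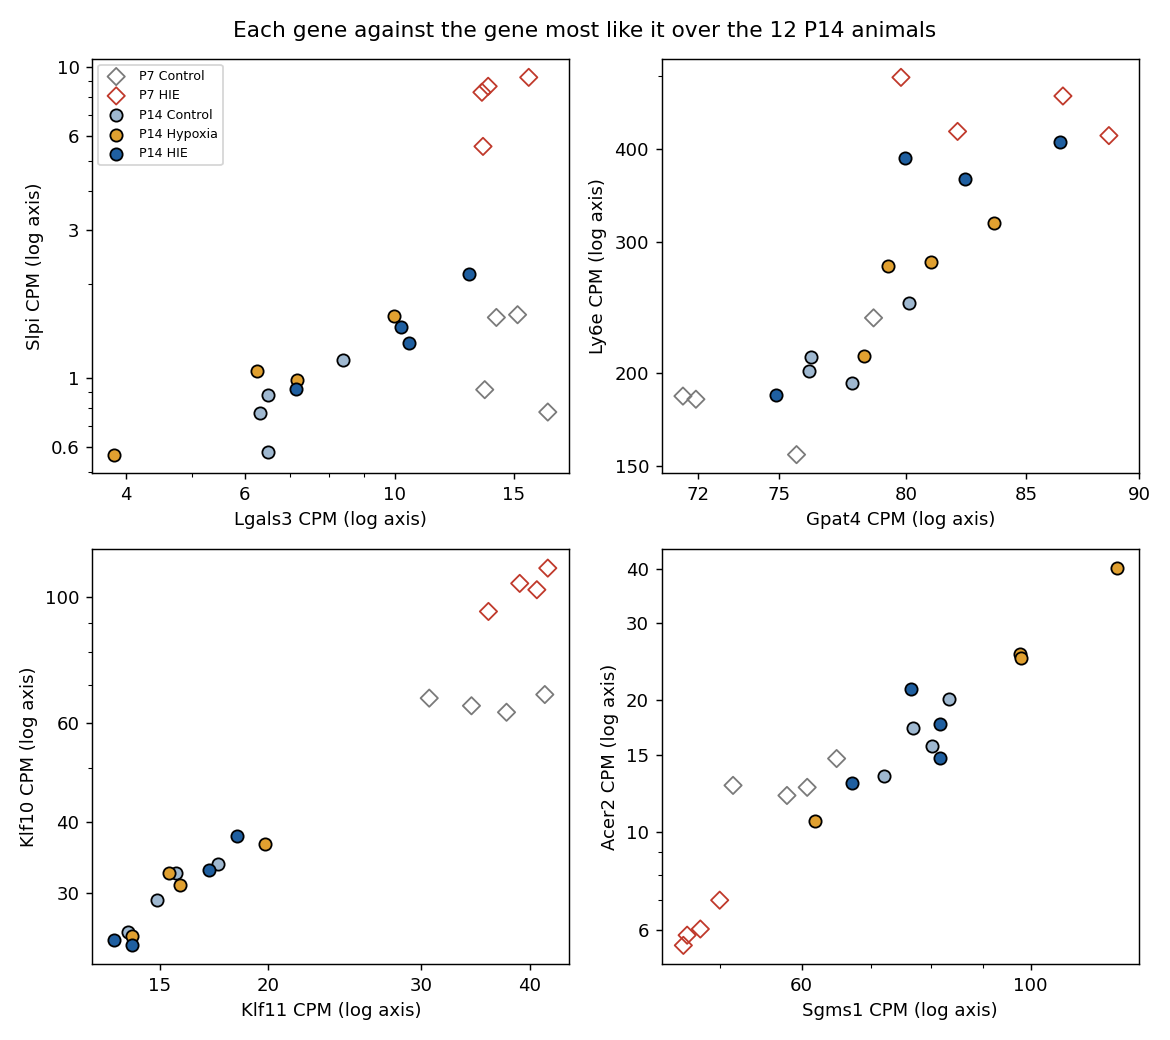
CPM of each gene (y axis) against the gene with the highest r over the 12 P14 animals (x axis), both axes logarithmic, with filled circles for P14 and open diamonds for P7. The P14 points run along a rising line in each panel, the P7 HIE pups of Slpi and Klf10 lie above controls of like Lgals3 and Klf11 level, and those of Acer2 lie lowest on both axes.

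The 2 P14 HIE animals with 2 libraries each show the error of a repeat. CPM in this paragraph is scaled by library size alone, with no TMM factor. Slpi was at 1.09 and 1.33 CPM in the libraries of the P4H1 female and at 0.86 and 1.02 CPM in those of the P6H12 male, Ly6e at 383 and 375 and at 396 and 394 CPM, Klf10 at 36.6 and 33.8 and at 25.5 and 25.01 CPM and Acer2 at 20.3 and 19.1 and at 14.7 and 11.8 CPM. For each gene the repeats lay closer together than the range over the 4 HIE animals on the same scale. Over 20074 and 21095 genes the repeats differed by more than counting error, with a chi-square per gene of 5.61 in the P4H1 female and 9.94 in the P6H12 male.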

How the data were processed

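RNA from CD11b+ brain cells of 20 mice was sequenced by the authors after removal of ribosomal RNA with a stranded kit, and reads were mapped to GRCm39 with STAR and counted with RSEM. The deposited values are expected counts per gene, not scaled for library size, which RSEM divides among overlapping and similar genes. They were rounded to whole numbers, and repeat libraries of 1 animal were summed. Of 56691 identifiers, 56017 matched GENCODE release M39 and 674 did not.

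All genes entered each comparison. edgeR 4.0.16 (under R 4.3.3) gave the quasi-likelihood test after TMM and filterByExpr, and p-values were adjusted by Benjamini-Hochberg over every gene tested. DESeq2 1.42.0 served as an alternative. Correlations used log2 of CPM plus 0.5. Alternatives covered scaling, filter, fit, covariates, control litters, sex and leaving out each animal. The 4 genes, the 16 gene lists and 15 marker lists were chosen with earlier results of these data known. Genes named in lists were some of the 3 of highest mean CPM, since none passed edgeR, and some of those that DESeq2 called. Both were chosen after their values were seen. For each of the 4 genes, the 5 of highest r were named. The values of 1 list gene are not reported here.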

Additional observations from a re-analysis of the deposited data

How the results depend on the processing

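The choice of the 4 genes rests on all 8 P7 animals: by edgeR none of them had an adjusted p under 0.05 once any 1 animal other than the P6H55 male was left out, which describes the choice and is no test of the genes. Their P7 directions stayed the same in every fit run. Against P6H63 alone the log2 fold change of Slpi was 3.26, and on library size those of Ly6e, Klf10 and Acer2 were 1.04, 0.47 and -1.31. Leaving out each animal gave 2.54 to 2.89 for Slpi, 1.16 to 1.39 for Ly6e, 0.64 to 0.72 for Klf10 and -1.17 to -1.04 for Acer2. Of all genes, 15 passed at P7, 3024 with DESeq2, 13904 against P6H63, 26 against P6H55 and 10 to 5588 without 1 animal, the highest without the P6H55 male. The causes were not tested. DESeq2 at P7 and the fits on P6H animals alone were chosen after seeing the data.

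No P14 fit called any of the 4 genes. Values near 0 changed sign between HIE and control for Klf10 (0.00721 with no filter, -0.147 to 0.0747 without 1 animal) and Acer2 (0.0179 with no filter, 0.035 with the first library only, -0.139 to 0.102 without 1 animal), and without 1 animal for Klf10 in hypoxia against control (-0.0335 to 0.141), HIE against hypoxia (-0.216 to 0.0076) and males against females (-0.021 to 0.0783) and for Ly6e in males against females (-0.0698 to 0.257). Counts of all genes called were 1 between HIE and control, against 490 with DESeq2, 3 with no filter, 0 with the 3 groups in 1 fit, 2 with the name prefix as a covariate and 0 to 6 without 1 animal. They were 2 between hypoxia and control, against 164 with DESeq2, 5 with the bias-adjusted fit, 1 with sex as a covariate, 0 with the 3 groups in 1 fit, 0 with P6H animals alone and 1 to 7 without 1 animal. They were 2 between HIE and hypoxia, against 15 with DESeq2, 5 with no filter, 1 with sex as a covariate, 0 with the 3 groups in 1 fit and 1 to 3 without 1 animal. Between the sexes they were 9, against 18 with DESeq2 and 15 with no filter. No paired analysis was possible because treated and control animals share no litter and their replicate numbers only name animals; the litter was a block between the sexes alone. Counting error limits Slpi most, with 20 to 92 counts per P14 animal.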
